A study of Schizosaccharomyces pombe with 130 samples.

Results

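The comparison described here sets polyadenylated (pA) RNA of fission yeast cells that lack Clr3 against pA RNA of wild-type cells, gene by gene. Features of dg/dh, tlh and the mat locus were left out, but other ncRNAs annotated as centromeric were kept. The genotype labelled clr3d (clr3Δ below) had 2 libraries, both of strain 302 (clr3Δ::TAP-kanMX6 in an h+ strain with the marker alleles ade6-M210, leu1-32 and ura4-DS/E and the centromeric reporter otr1R(SphI)::ura4+). Wild type (wt) had 4 libraries, of which replicates 1, 3 and 4 were strain 63 (h+, with that reporter and those alleles but no deletion) and replicate 2 was strain 65 (h90, the same markers, with ago1 carrying an amino-terminal 3xFLAG tag and natMX6). Further below, clr3Δ is also set against mit1Δ (2 libraries, strain 491) and chp2Δ (4 libraries, strain 324). All cells were grown in rich medium, and each mutant is 1 strain. The labels do not say whether libraries of a genotype came from separate cultures, so that p-values measure only the spread between libraries. That spread was estimated over all genotypes of an assay, in pA RNA over the 32 libraries of the series, not over clr3Δ and wild type alone. Of the 7021 features in the count tables, 6912 were members of the comparison: 5105 protein-coding genes, 1522 non-coding RNAs (ncRNAs), 67 snoRNAs or snRNAs and 218 tRNAs or rRNAs. Left out were 31 features of dg/dh, tlh, the mat locus and the core centromeres, clr3 itself, and 77 pseudogenes or features without a class in the reference annotation. After the filter on low counts (at least 10 counts in at least 2 of the 32 pA RNA libraries of the series), 6536 members were tested.

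Clr3 is a class II histone deacetylase that removes acetyl groups from lysine 14 of histone H3. It works in the SHREC complex together with Clr1, Clr2 and the chromatin remodeler Mit1, and the HP1 protein Chp2 brings the complex to nucleosomes methylated on lysine 9 of histone H3 (H3K9me). In fission yeast, H3K9me and its readers silence genes at the pericentromeric repeats, the mating-type locus and the regions next to the telomeres. Besides pA RNA, the same clr3Δ strain was profiled for RNA bound to elongating RNA polymerase II (Pol II RIP, a measure of nascent RNA), for Pol II on DNA (Pol II ChIP) and for H3K9me2, and these libraries are set beside the pA RNA values.

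The deleted gene was lower in each clr3Δ library of Pol II ChIP, Pol II RIP and pA RNA than in every wild-type library of the same assay. In pA RNA, clr3 had 19.9 and 15.9 CPM (read counts scaled to library size, here after correction by the trimmed mean of M values, TMM) in clr3Δ, against 104, 98.8, 67.9 and 61.8 CPM in wild type, and it was between 23.2 and 54.4 CPM in the 3 clr3Δ Pol II RIP libraries, against 191 and 147 CPM in the 2 wild-type ones. The gap was smaller in Pol II ChIP, where clr3 had 92.7 and 71.7 CPM in clr3Δ, against 139.9 and 142.6 CPM in wild type. Total counts were 13933435 and 12623558 in the clr3Δ pA RNA libraries and 13303953 to 17771761 in the wild-type ones. The wild-type libraries fell into pairs: Spearman correlations across features were 0.978 between replicates 1 and 2 and 0.987 between replicates 3 and 4, but 0.917 to 0.9497 across the pairs, against 0.990 between the clr3Δ libraries and 0.949 to 0.971 between clr3Δ and wild type. The split does not follow strain, since replicate 2 alone was strain 65, and its source was not tested.

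A feature was called when its adjusted p was under 0.05 (edgeR quasi-likelihood test, Benjamini-Hochberg over all features). In clr3Δ, 28 members were higher and 38 were lower than in wild type. In bulk RNA such as this, more RNA per cell and more cells that make an RNA cannot be told apart. Among all 6600 features tested, left-out ones included, 0.606% were called higher and 0.591% lower. The higher group held 18 protein-coding genes and 10 ncRNAs, the lower group 23 protein-coding genes and 15 ncRNAs, and no snoRNA or snRNA was called of the 58 tested. The higher members changed more: 18 of the 28 differed at least 4-fold and their median log2 fold change was 3.08 in size, whereas 16 of the 38 lower members differed at least 4-fold, with a median size of 1.43. The higher members were also RNAs of low abundance in wild type, with a median of 2.29 CPM in wild type, against 54.2 CPM for the lower members and 77.9 CPM for all members tested. All 66 called members had both clr3Δ libraries on the same side of all 4 wild-type libraries. That by itself was common: across all features, both clr3Δ libraries lay above all wild-type libraries for 7.55% and below them for 9.97%. At an unadjusted p under 0.05, 237 members were higher and 484 lower. The counts depended on single libraries, as 12 and 14 members were called higher, and 2 and 4 lower, without clr3Δ replicate 2 and without clr3Δ replicate 1. Without wild-type replicate 3, 18 were higher and 24 lower. The calls also rested on the spread shared with other genotypes. A fit of the clr3Δ and wild-type libraries alone kept 10 of the 28 higher and 2 of the 38 lower members.

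The most compact group of higher members was a run of 7 neighbouring features near the right end of chromosome I, from prl61 to SPAC750.06c (chromosome I, 5546205 to 5569803 in RefSeq ASM294v3). All 7 tested features that lie wholly within these 23.6 kb were called higher. An eighth, the hydroxyacid dehydrogenase gene SPAC186.07c, overlaps prl61 at the edge of the run and was not called, with 0.929 and 0.787 CPM in clr3Δ, against 0.130, 0.129, 0.275 and 0.155 CPM in wild type (log2 fold change 2.26 ± 0.93, edgeR, adjusted p = 0.34). The gene ftm4, which encodes a protein with a transmembrane helix, had 22.4 and 25.8 CPM in clr3Δ, against 0, 0, 0.138 and 0.541 CPM in wild type, a log2 fold change of 7.16 ± 1.08 (SE, edgeR, adjusted p = 0.000257). Its level in the 4 wild-type libraries rested on 9 reads in all, and the fitted change was 11.31 without wild-type replicates 3 and 4 and 6.18 without replicates 1 and 2. Its neighbour SPAC750.06c, of unknown function, had 4.64 and 4.37 CPM in clr3Δ, against 0.0652, 0, 0.0688 and 0 CPM in wild type. With only 2 wild-type reads, the ratio of summed counts was 132-fold with a 95% exact interval of 35.6 to 1101, which covers counting error only.

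The remaining genes of this run encode metabolic enzymes or are non-coding. SPAC750.01, of the aldo/keto reductase family, had 30.6 and 29.5 CPM in clr3Δ, against 2.74, 0.323, 2.82 and 3.09 CPM in wild type (log2 fold change 3.74 ± 0.50). SPAC186.08c, an L-lactate dehydrogenase, which interconverts lactate and pyruvate, had 10.9 and 6.91 CPM in clr3Δ, against 0.522, 0.194, 0.688 and 0.309 CPM in wild type (4.35 ± 0.61). The pyruvate decarboxylase gene pdc102, whose product turns pyruvate into acetaldehyde, stayed at a low level even in clr3Δ, with 3.72 and 2.97 CPM there and 0.0773 to 0.137 CPM in wild type. Its antisense RNA prl107 was also higher, at 4.64 and 4.72 CPM in clr3Δ and 0.155 to 0.652 CPM in wild type. Counting used strand, so that sense and antisense reads were counted apart. The ncRNA prl61 had 5.73 and 5.33 CPM in clr3Δ and 0.258 to 1.24 CPM in wild type. In none of the 7 did a wild-type library reach the lower of the clr3Δ libraries. Nearer the centromere, the tested features beside SPAC186.07c were not called either. The gene gdt1, whose product belongs to a family of membrane cation transporters, had 219 and 209 CPM in clr3Δ, against 145, 5.55, 125 and 203 CPM in wild type (edgeR, adjusted p = 0.77). There the strain 65 library was the low one, as it also was for SPAC750.01, SPAC186.06 (19.1 and 13.9 CPM in clr3Δ, against 2.61, 0.774, 10.3 and 16.4 CPM) and SPAC186.04c (14.6 and 11.0 CPM in clr3Δ, against 9.52, 0.903, 4.40 and 9.43 CPM).

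**Figure D1:**
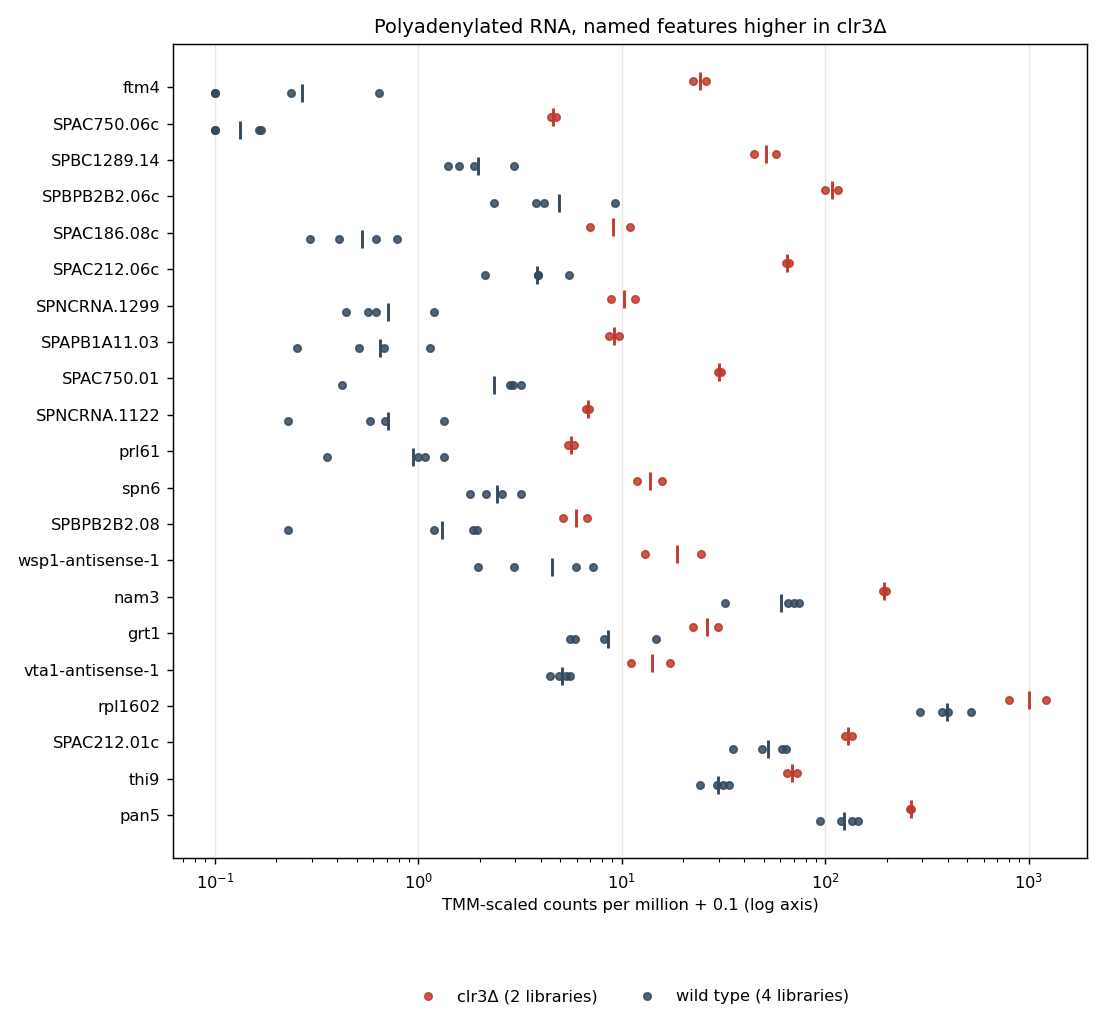
Polyadenylated RNA of the 21 features named among those higher in clr3Δ, as TMM-scaled CPM plus 0.1 on a log axis. Points are libraries (red, 2 clr3Δ; dark blue, 4 wild type) and vertical bars are means. In each row both clr3Δ libraries lie to the right of every wild-type library, from ftm4 at 22.4 and 25.8 CPM in clr3Δ down to pan5 with 264 and 262 CPM.

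At the left end of chromosome I, 2 of the 41 members tested within 100 kb were higher. SPAC212.06c, a DNA helicase-like gene, had 64.3 and 65.9 CPM in clr3Δ, against 2.02, 5.42, 3.78 and 3.79 CPM in wild type (log2 fold change 4.11 ± 0.60). It lies close to the left-out tlh1 gene, and reads with several heterochromatic locations were counted, so that shared reads cannot be told apart. SPAC212.01c had 135 and 125 CPM in clr3Δ, against 35.0, 61.4, 48.7 and 64.1 CPM in wild type (1.31 ± 0.27). Both genes belong to the subtelomeric features that the study lists. That list has 16 features, of which 13 are members: 2 were called, 8 had both clr3Δ libraries above all wild-type ones, and the median log2 fold change was 1.04, beside −0.04 over all members tested. Over all features, 0.606% were called higher and 7.55% had both clr3Δ libraries above all wild-type ones. Between the called genes, SPAC212.04c had 96.8 and 98.8 CPM in clr3Δ and 33.3 to 56.7 CPM in wild type, just outside the threshold (edgeR, adjusted p = 0.0547). The gene ftm1 overlapped between genotypes, with 472 and 517 CPM in clr3Δ, against 170, 195, 235 and 547 CPM in wild type.

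On chromosome II the members called higher lay farther from the end. SPBCPT2R1.04c, 25.2 kb from the right end, was not called, with 8.75 and 5.33 CPM in clr3Δ and 0.913 to 1.94 CPM in wild type (log2 fold change 2.18 ± 0.60, edgeR, adjusted p = 0.0859). Within 15.5 kb of the right arm (4464625 to 4480164), 4 of 7 tested features were higher. SPBPB2B2.06c, which encodes a phosphoprotein phosphatase, had 115 and 100.1 CPM in clr3Δ, against 9.13, 4.06, 2.27 and 3.71 CPM in wild type (log2 fold change 4.49 ± 0.58, edgeR, adjusted p = 4.44e-05). The long ncRNA nam3 had 193 and 198 CPM in clr3Δ, against 31.95, 74.6, 65.4 and 70.0 CPM in wild type. The gene pan5, a 2-dehydropantoate reductase of pantothenate synthesis, had 264 and 262 CPM in clr3Δ and 93.9 to 146 CPM in wild type, and SPBPB2B2.08 had 6.66 and 5.07 CPM in clr3Δ and 0.129 to 1.86 CPM in wild type. These 4 were abundant to rare, but none was near silent in all wild-type libraries, in contrast to ftm4 and SPAC750.06c. A second feature of the name nam3, SPNCRNA.532, lies at the same distance from the end as the called one, SPNCRNA.1696, and was not called, with 102 and 117 CPM in clr3Δ, against 18.1, 37.7, 41.0 and 46.6 CPM in wild type (1.61 ± 0.44, edgeR, adjusted p = 0.0865). Of the galactose genes beside them, gal10 (19.7 and 18.4 CPM in clr3Δ, 4.95 to 17.8 CPM in wild type) and gal7 (45.6 and 43.5 CPM in clr3Δ, 26.3 to 36.7 CPM in wild type) did not overlap between genotypes but were not called, whereas gal1 (46.1 and 39.3 CPM in clr3Δ, 11.7 to 65.0 CPM in wild type) and tgd1 (7.97 and 8.39 CPM in clr3Δ, 4.56 to 13.0 CPM in wild type) overlapped. On the left arm, grt1, a gene for a transcription factor, had 29.7 and 22.4 CPM in clr3Δ, against 5.80, 5.48, 8.04 and 14.6 CPM in wild type.

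By position, higher members were most frequent next to the ends of chromosomes I and II. Of 42 members tested within 50 kb of these ends, 10 (23.8%) were higher and none was lower, and the median log2 fold change of all 42 was 1.05. Between 50 and 100 kb, 4 of 92 were higher and 3 lower, and the median was −0.16. Beyond 500 kb, 9 of 4285 (0.210%) were higher and 21 (0.490%) lower. Within 100 kb lay 14 of the 28 higher members and 3 of the 38 lower members. The count within 50 kb was uneven among the ends: the right end of chromosome I held 7 of the 10. Within 100 kb, 9 members were called higher without clr3Δ replicate 1, 8 without clr3Δ replicate 2, 11 to 14 without any 1 wild-type library, and 13 without either pair of wild-type libraries, and the 3 lower calls there were all lost without either clr3Δ library. Chromosome III, whose ends carry the ribosomal DNA, had 1 higher member of 33 tested within 50 kb, SPNCRNA.1299 at 3.38 kb from the right end of the reference sequence (11.5 and 8.74 CPM in clr3Δ, 0.344 to 1.10 CPM in wild type).

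**Figure D2:**
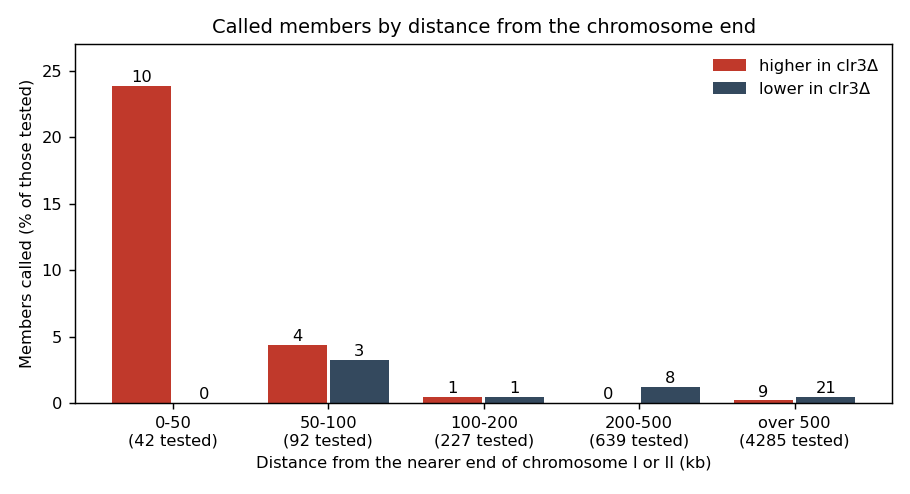
Share of tested members called higher (red) or lower (dark blue) in clr3Δ, in percent, by distance from the nearer end of chromosome I or II in kb. Numbers over the bars count the called members. The share called higher is 23.8% within 50 kb and 0.210% beyond 500 kb, and no member within 50 kb was called lower.

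Higher members outside these regions came from all 3 chromosomes. The largest change among their protein-coding genes was that of SPBC1289.14, a gene for a protein of the adducin family, which in animals links actin to the membrane skeleton. It lies 126 kb from the right end of chromosome II and had 57.4 and 44.8 CPM in clr3Δ, against 1.30, 1.48, 1.79 and 2.86 CPM in wild type (log2 fold change 4.78 ± 0.35, edgeR, adjusted p = 7.02e-09, the smallest among the members). SPAPB1A11.03, annotated as a cytochrome-type L-lactate dehydrogenase and located 2593 kb from the chromosome end, had 8.59 and 9.62 CPM in clr3Δ and 0.155 to 1.04 CPM in wild type. It and SPAC186.08c are thus both annotated as lactate dehydrogenases. The septin gene spn6, whose product acts at the forespore membrane in meiosis, had 15.6 and 11.8 CPM in clr3Δ, against 2.48, 3.10, 2.06 and 1.70 CPM in wild type. Smaller changes were seen at thi9, a thiamine transporter gene (72.6 and 64.8 CPM in clr3Δ, 24.1 to 33.4 CPM in wild type), and at the ribosomal protein gene rpl1602 (801 and 1214 CPM in clr3Δ, 293 to 520 CPM in wild type). The gene rpl1602 has paralogues, and only reads with 1 location were counted there. Of the RNA-binding protein genes, nrd1, a negative regulator of sexual differentiation, had 231 and 206 CPM in clr3Δ and 75.9 to 154 CPM in wild type, and mpf2, of the pumilio family, had 125 and 145 CPM in clr3Δ and 50.4 to 93.7 CPM in wild type. They were the only higher members under 2-fold, and were named after their values were seen.

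Among the 10 higher ncRNAs, SPNCRNA.234 and SPNCRNA.231 are annotated as centromeric long ncRNAs of chromosome I and had no read in any wild-type library. In clr3Δ they had 0.697 and 1.92 CPM, and 0.387 and 0.699 CPM. Against a floor of 3 counts over the wild-type group, they were at least 24.7-fold and at least 10.4-fold higher. Reads with several locations were counted within heterochromatic regions, so that reads shared with the left-out repeats cannot be told apart there. The ncRNA rse1, known to repress the neighbouring meiotic regulator gene ste11 in cis, had 92.6 CPM in each clr3Δ library, against 33.8, 56.6, 45.2 and 34.3 CPM in wild type (log2 fold change 1.12 ± 0.22). The ncRNA SPNCRNA.1122 had 6.58 and 6.82 CPM in clr3Δ and 0.129 to 1.24 CPM in wild type, wsp1-antisense-1 had 12.9 and 24.4 CPM in clr3Δ and 1.86 to 7.16 CPM in wild type, and vta1-antisense-1, annotated as a possible alternative UTR, had 17.1 and 11.0 CPM in clr3Δ and 4.32 to 5.49 CPM in wild type. Over all 1427 ncRNAs tested, the median log2 fold change was 0.25, beside −0.08 for the 5048 protein-coding genes. Of these ncRNAs, 10 were called higher and 15 lower, where 0.606% and 0.591% of all features were. The 15 include SPNCRNA.113 with SPNCRNA.1674, and SPNCRNA.411 with SPNCRNA.1561, which may hold the same reads. Without either clr3Δ library, 4 to 5 ncRNAs were called higher and none lower, and without wild-type replicate 3, 6 were higher and 8 lower. The lower count was also 9 without wild-type replicate 1 and 9 without wild-type replicate 4.

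H3K9me2 was measured in 1 library of each genotype (the wild type was strain 65), so its values are descriptions without a test. The ratio of H3K9me2 ChIP to input was divided by that of the median member of the same library, which was 0.392 in clr3Δ and 0.078 in wild type, so that relative values also carry this difference in background. With at least 10 input counts, 6410 members had a value in both genotypes. Only 7 reached a relative value of 10 in clr3Δ, against 35 in wild type. Of these 35, 27 lay within 100 kb of the ends of chromosomes I and II, where their median relative value was 1.47 in clr3Δ and 235 in wild type. The clr3Δ library was not devoid of enrichment: ChIP over input was 24.9 in clr3Δ and 40.6 in wild type at the left-out dg repeat, 8.58 in clr3Δ and 10.5 in wild type at ura4, of which a copy is inserted in the centromere of both strains, and 5.50 in clr3Δ and 1.99 in wild type at mei4, a meiotic gene within an H3K9me island. Relative to the median member, the values were lower in clr3Δ at all 3, with 63.4 in clr3Δ and 521 in wild type at dg, 21.9 in clr3Δ and 135 in wild type at ura4, and 14.0 in clr3Δ and 25.5 in wild type at mei4, so that the direction at mei4 depends on the scale.

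The H3K9me2 values split the higher members. In 8 of the 24 with a value, the relative value was at least 10 in wild type: pdc102, SPAC186.08c, SPAC212.06c, SPNCRNA.1299, SPAC750.01, prl107, prl61 and SPAC212.01c, with 1.04 to 10.4 in clr3Δ and 137 to 583 in wild type. At pdc102, ChIP over input itself was 0.476 in clr3Δ, against 45.4 in wild type, and at SPAC212.06c it was 4.06 in clr3Δ, against 25.0 in wild type. The other 16 had relative values of 0.55 to 1.59 in clr3Δ and 0.43 to 2.07 in wild type and so lay near the median member in both genotypes. They include SPBC1289.14, SPBPB2B2.06c, nam3, pan5, grt1, SPAPB1A11.03 and spn6. No ratio is given for ftm4 and SPAC750.06c, which had 4 and 1 wild-type input counts. Their H3K9me2 counts were 38 and 54 in clr3Δ, against 1105 and 1194 in wild type. At SPNCRNA.234 and SPNCRNA.231, with 38 and 47 input counts, ChIP over input in clr3Δ was 20.8 and 40.4, the levels of the dg repeat.

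Not every member with high H3K9me2 in wild type was called higher in clr3Δ. Of the 27 subtelomeric members with high wild-type H3K9me2, 7 were called higher and none lower, 19 had both clr3Δ libraries above all wild-type ones, and the median log2 fold change was 1.24. Among all features tested, 0.606% were called higher and 7.55% had both clr3Δ libraries above all wild-type ones. Those not called include gdt1 (relative H3K9me2 1.47 in clr3Δ, 332 in wild type), ftm1 (2.42 in clr3Δ, 87.0 in wild type), ftm2 (1.48 in clr3Δ, 77.6 in wild type), SPAC977.18 (1.73 in clr3Δ, 96.5 in wild type) and the flocculin gene pfl9 (1.25 in clr3Δ, 50.2 in wild type). At ftm2 and SPAC977.18, wild-type replicate 4 exceeded all other libraries: ftm2 had 10.4 and 9.97 CPM in clr3Δ, against 6.65, 3.29, 3.09 and 26.3 CPM in wild type, and SPAC977.18 had 10.3 and 11.0 CPM in clr3Δ, against 20.5, 7.16, 9.56 and 79.9 CPM in wild type. The wild-type H3K9me2 library was of strain 65. In the pA RNA library of that strain, wild-type replicate 2, gdt1, ftm1, ftm2 and SPAC977.18 lay below both clr3Δ libraries, and pfl9, with 9.61 CPM there and 8.20 and 6.64 CPM in clr3Δ, lay above them.

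**Figure D3:**
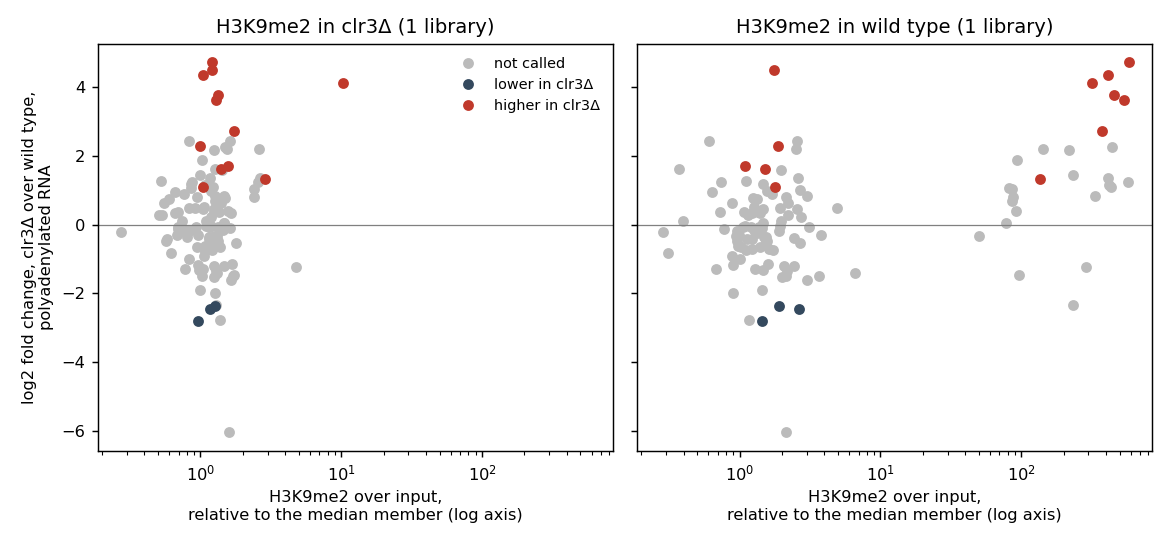
Change in pA RNA (log2 fold change, clr3Δ over wild type) against H3K9me2 over input relative to the median member of the library (log axis), for members within 100 kb of the ends of chromosomes I and II with at least 10 input counts. The left panel gives H3K9me2 in clr3Δ and the right panel in wild type, 1 library each (red, called higher; dark blue, called lower; grey, not called). The 27 members at 10 or more in wild type have a median of 1.47 in clr3Δ, and 7 of them are red.

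The lower members were spread along the arms. Their median level in wild type was 54.2 CPM, below the 77.9 CPM of all members tested. The largest change among the named ones was that of SPAPB24D3.07c, of unknown function on chromosome I, with 15.95 and 19.8 CPM in clr3Δ, against 167, 112, 85.1 and 173 CPM in wild type (log2 fold change −2.91 ± 0.43, edgeR, adjusted p = 0.000235). Of the lower members, 4 lay side by side on chromosome II (4126318 to 4133635): cnp3, SPNCRNA.1673, SPNCRNA.1674 and abp2. The gene cnp3, for the centromere protein of the CENP-C family, had 37.3 and 39.7 CPM in clr3Δ, against 277, 132, 104 and 109 CPM in wild type. The gene abp2, for a protein that binds origins of replication, had 39.9 and 40.5 CPM in clr3Δ, against 178, 122.6, 148 and 137 CPM in wild type (−1.86 ± 0.27, edgeR, adjusted p = 0.000213). The ncRNAs between them, SPNCRNA.1673 and SPNCRNA.1674, had 4.57 and 5.42 CPM, and 13.9 and 13.5 CPM, in clr3Δ, against 18.8 to 52.0 CPM and 21.6 to 116 CPM in wild type. SPNCRNA.113, which has no position in the reference, had values close to those of SPNCRNA.1674 in every library and may hold the same reads, as may SPNCRNA.411 and SPNCRNA.1561.

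The gene mae2, for the malic enzyme that turns malate into pyruvate, was lower, with 641 and 708 CPM in clr3Δ, against 2187, 1830, 1227 and 1342 CPM in wild type (−1.29 ± 0.32). The adenine deaminase gene dea2 had 162 and 122 CPM in clr3Δ and 230 to 428 CPM in wild type, and the dihydroxyacetone kinase gene dak2 had 4.03 and 4.02 CPM in clr3Δ and 13.1 to 29.9 CPM in wild type. Both catechol O-methyltransferase genes were lower: cmt1 had 35.4 and 35.0 CPM in clr3Δ and 77.5 to 118 CPM in wild type, and cmt2, on another arm region 64.5 kb from the left end of chromosome II, had 2.48 and 3.15 CPM in clr3Δ and 6.26 to 21.0 CPM in wild type. The neighbours SPAC513.07 and SPAC2E1P3.01, both annotated as reductases or dehydrogenases, had 72.5 and 68.1 CPM, and 26.8 and 26.1 CPM, in clr3Δ, against 142 to 221 CPM and 44.2 to 67.0 CPM in wild type. The hexitol dehydrogenase gene tms1 had 7.90 and 6.12 CPM in clr3Δ and 13.1 to 17.8 CPM in wild type.

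The gene pfl3, for a DIPSY-family glycoprotein of the cell surface, had 45.0 and 45.2 CPM in clr3Δ, against 108, 77.3, 150.1 and 192 CPM in wild type, and its neighbour SPNCRNA.322 had 17.0 and 14.3 CPM in clr3Δ and 21.7 to 94.7 CPM in wild type. The gene cbm1, for a protein with a cellulose-binding domain, had 86.6 and 62.9 CPM in clr3Δ, against 143, 502, 502 and 296 CPM in wild type (−2.27 ± 0.40). The stress-responsive gene rds1 had 23.1 and 19.2 CPM in clr3Δ, against 121, 219, 79.4 and 88.3 CPM in wild type. The F-box protein gene pof13 had 9.83 and 8.66 CPM in clr3Δ and 16.6 to 24.5 CPM in wild type. SPAC56F8.12-antisense-1 had 17.9 and 15.7 CPM in clr3Δ, against 196, 58.1, 73.6 and 105 CPM in wild type, and SPNCRNA.1424 had 2.40 and 1.84 CPM in clr3Δ and 6.57 to 26.4 CPM in wild type. The smallest called change, named after its value was seen, was that of sds3, a subunit of the Clr6 histone deacetylase complexes, with 56.4 and 53.1 CPM in clr3Δ and 77.9 to 85.4 CPM in wild type (−0.57 ± 0.14). H3K9me2 did not mark this group: its median relative value was 0.88 in clr3Δ and 0.90 in wild type, and mae2 alone reached 10 in wild type (2.02 in clr3Δ, 10.1 in wild type), where ChIP over input was 0.792 in clr3Δ and 0.789 in wild type.

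**Figure D4:**
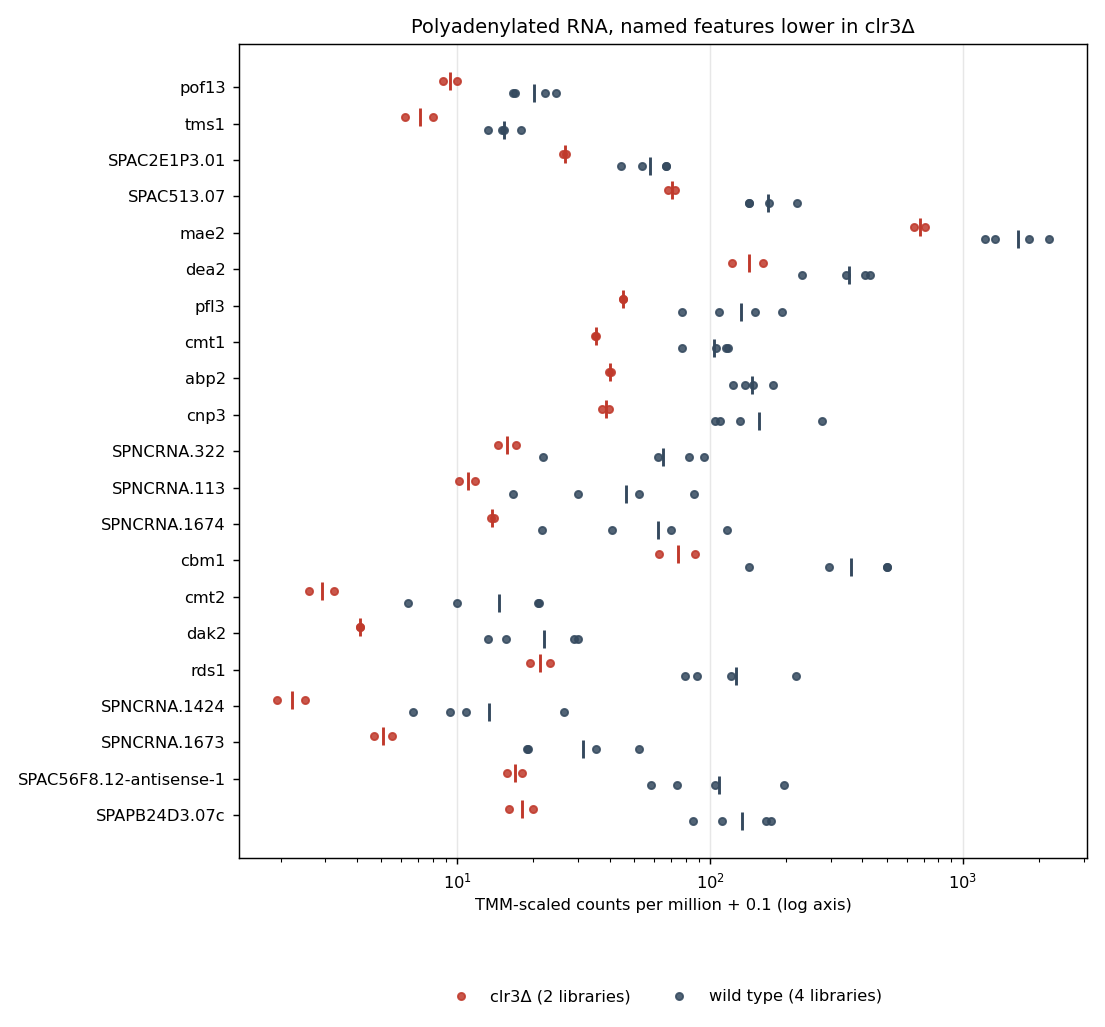
Polyadenylated RNA of the 21 features named among those lower in clr3Δ, as TMM-scaled CPM plus 0.1 on a log axis. Points are libraries (red, 2 clr3Δ; dark blue, 4 wild type) and vertical bars are means. In each row both clr3Δ libraries lie to the left of every wild-type library, as at abp2 with 39.9 and 40.5 CPM in clr3Δ and 122.6 to 178 CPM in wild type.

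Nascent RNA came from separate libraries (3 of clr3Δ, 2 of wild type, strain 63) and was not used to choose the members. Its depth was lower, with 2518728 to 5935793 counts in clr3Δ and 5770494 and 1467612 counts in wild type. In Pol II RIP, 9 members were called higher and 31 lower, where 0.336% and 0.505% of all features were. The lower count was 11 without clr3Δ replicate 1 and 11 without clr3Δ replicate 2, and the higher count was 5 without wild-type replicate 1. Of the 28 members higher in pA RNA, 27 were tested in Pol II RIP: 25 had a positive log2 fold change, 5 were called higher and none lower, and the median was 1.85. Of the 38 lower members, 37 had a negative log2 fold change, 9 were called lower and none higher, and the median was −0.94. Over all members tested in pA RNA, 3375 of 6444 were positive in Pol II RIP and the median was 0.02. The classes differed: over members tested in Pol II RIP, the median was 0.71 for ncRNAs and −0.03 for protein-coding genes. Of the called members, 10 of the 28 higher and 15 of the 38 lower were ncRNAs. The 5 called higher in both were ftm4, SPBC1289.14, SPBPB2B2.06c, SPAC212.06c and rse1, and the 9 called lower in both were SPAPB24D3.07c, SPAC56F8.12-antisense-1, cbm1, SPNCRNA.322, cnp3, abp2, pfl3, dea2 and atd3-antisense-1.

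The sizes were alike for several of these. SPBPB2B2.06c had 101, 89.0 and 71.1 CPM of nascent RNA in clr3Δ, against 4.38 and 1.64 CPM in wild type (log2 fold change 4.63 ± 0.60, beside 4.49 in pA RNA). The gene ftm4 had 13.8, 11.6 and 9.22 CPM in clr3Δ and no read in either wild-type library. SPAC212.06c had 94.2, 174 and 145 CPM in clr3Δ, against 7.74 and 5.73 CPM in wild type. The gene abp2 had 104, 119 and 221 CPM in clr3Δ, against 485 and 652 CPM in wild type (−1.94 ± 0.25, beside −1.86 in pA RNA), and SPAC56F8.12-antisense-1 had 34.8, 23.0 and 32.1 CPM in clr3Δ, against 223 and 255 CPM in wild type. The clr3Δ RIP libraries did not always agree among themselves: SPBC1289.14 had 17.6, 15.3 and 106 CPM in clr3Δ, against 2.02 and 0.819 CPM in wild type, and SPAC186.08c had 2.24, 4.97 and 68.5 CPM in clr3Δ, against 0.168 and 0 CPM in wild type, so that replicate 3 was far above the others. For rpl1602 and thi9 nascent RNA overlapped between genotypes, with 222, 287 and 298 CPM in clr3Δ, against 244 and 307 CPM in wild type, and with 116, 127 and 134 CPM in clr3Δ, against 181 and 115 CPM in wild type.

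The difference between the pA RNA change and the nascent RNA change was tested in 1 model over both kinds of library. No member passed in either direction (edgeR), and of all features 0% were called higher and 0% lower. At an unadjusted p under 0.05, 79 members had a larger and 197 a smaller change in pA RNA than in nascent RNA, and no other tool was run. For thi9 the difference was 1.47 ± 0.32 on the log2 scale (edgeR, adjusted p = 0.31). The SE of this difference exceeded 0.8 for ftm4, SPBC1289.14, SPBPB2B2.06c, SPAC212.06c and SPAC186.08c, so that moderate differences were not detectable there.

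**Figure D5:**
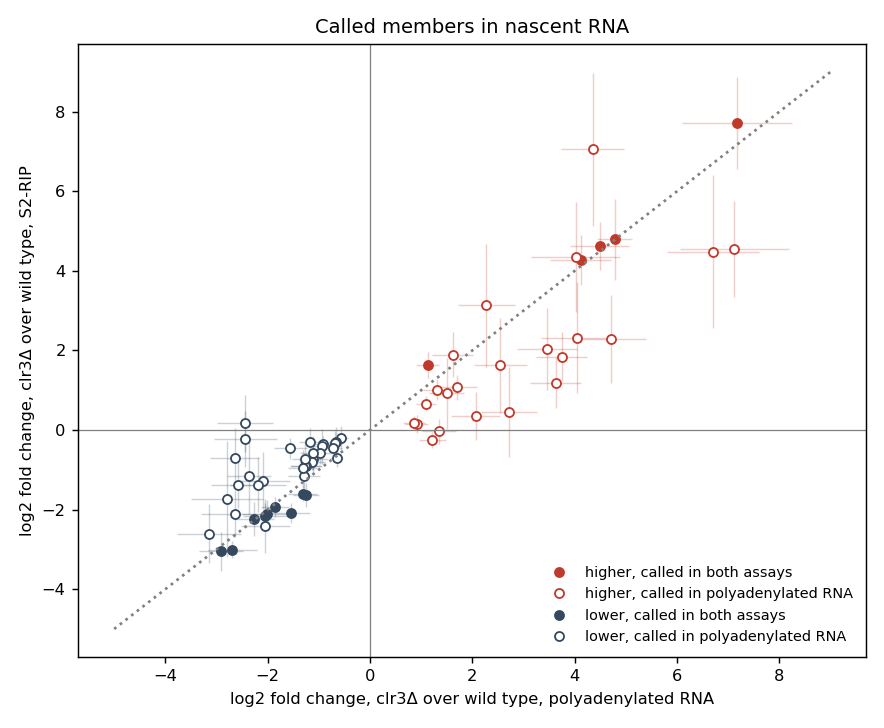
Log2 fold change of clr3Δ over wild type in pA RNA (horizontal) and in Pol II RIP, labelled S2-RIP (vertical), for the called members tested in both, with standard errors. Filled points were called in both assays (5 higher, red; 9 lower, dark blue) and the dotted line marks equal change. Of the higher members 25 of 27 lie above 0, and of the lower members 37 of 38 lie below 0.

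Pol II ChIP, with 2 libraries of each genotype, gave few calls: 1 member was higher and 7 were lower, where 0.0147% and 0.103% of all features were. Without either clr3Δ library 1 member was lower, without wild-type replicate 1 23 were lower, and without wild-type replicate 3 26 were higher and 21 lower. The paper subtracted scaled input from its Pol II ChIP data, but the counts here were fitted without subtraction and include background. None of the 28 members higher in pA RNA was called, 20 had a positive log2 fold change, and their median was 0.38. Of the 38 lower members, 32 were negative, with a median of −0.48, and 1 was called, SPAC2E1P3.01. For ftm4 the signal was 23.5 and 12.5 CPM in clr3Δ, against 0.401 and 1.84 CPM in wild type (log2 fold change 3.94 ± 0.91, edgeR, adjusted p = 0.11). For SPBPB2B2.06c it was 71.3 and 70.3 CPM in clr3Δ, against 29.5 and 16.2 CPM in wild type, and for abp2 99.1 and 101 CPM in clr3Δ, against 472 and 250 CPM in wild type. For SPAC186.08c the signal overlapped, at 12.4 and 13.1 CPM in clr3Δ, against 23.7 and 10.9 CPM in wild type. Input at this gene, scaled to library size without TMM, was 72.5 CPM in clr3Δ and 58.9 CPM in wild type (1 library each). Pol II above background was not estimated. The only member called higher in Pol II ChIP, named for that reason, was SPCC794.06 on chromosome III, with 462 and 384 CPM in clr3Δ, against 193 and 216 CPM in wild type (1.05 ± 0.12). It was also called in Pol II RIP (1.54 ± 0.23), and in pA RNA its log2 fold change was 1.07 ± 0.30 (edgeR, adjusted p = 0.11).

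The clr3Δ libraries were also set against those of the other genotypes that lack a partner of Clr3. These were mit1Δ (2 libraries of strain 491, h+, leu1-32 ura4-D18 ade6-216, with an imr1R(NCol)::ura4+ reporter) and chp2Δ (4 libraries of strain 324, h90, mat3::ura4+, with the ura4, leu1 and ade6 marker alleles of the clr3Δ strain). Both comparisons use the clr3Δ libraries that chose the members, so that values for the called members are descriptions. Against mit1Δ, 9 members were higher in clr3Δ and 19 lower, where 0.167% and 0.303% of all features were. Against chp2Δ, 16 were higher and 68 lower, where 0.318% and 1.05% of all features were. Without either clr3Δ library, 3 members were lower than in mit1Δ, and 5 to 6 were higher and 6 lower than in chp2Δ. Wild-type libraries enter these fits through the filter on low counts, the scaling and the shared spread. Without wild-type replicates 1 and 4, left out singly, 29 and 26 were higher than in chp2Δ. Among these differences were the deleted genes themselves: mit1 was higher in clr3Δ than in mit1Δ, and chp2 higher than in chp2Δ. The gene ura4 was higher in clr3Δ than in mit1Δ (3.14 ± 0.35). The mit1Δ strain differs from the clr3Δ strain in the deletion, the ura4 allele and the reporter site, which cannot be told apart here.

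The higher members differed in whether the partner mutants shared the high level. At ftm4, the level was 22.4 and 25.8 CPM in clr3Δ, 11.6 and 17.1 CPM in mit1Δ and 14.1 to 33.0 CPM in chp2Δ. At SPAC750.06c it was 4.64 and 4.37 CPM in clr3Δ, 4.92 and 3.72 CPM in mit1Δ and 2.53 to 4.10 CPM in chp2Δ, and at SPAC750.01 it was 30.6 and 29.5 CPM in clr3Δ, 21.4 and 21.8 CPM in mit1Δ and 11.8 to 23.6 CPM in chp2Δ. At these 3 genes the mutants lay well above the wild-type libraries, and clr3Δ was not called against either partner mutant. At SPBC1289.14, by contrast, the level was 57.4 and 44.8 CPM in clr3Δ, 0.396 and 0.694 CPM in mit1Δ and 1.04 to 2.46 CPM in chp2Δ, with wild type at 1.30 to 2.86 CPM. SPBPB2B2.06c had 115 and 100.1 CPM in clr3Δ, 2.66 and 2.03 CPM in mit1Δ and 3.65 to 16.4 CPM in chp2Δ. SPAC186.08c had 10.9 and 6.91 CPM in clr3Δ, 0.340 and 0.297 CPM in mit1Δ and 0.410 to 0.731 CPM in chp2Δ. SPNCRNA.1122 had 6.58 and 6.82 CPM in clr3Δ, 0.340 and 0.248 CPM in mit1Δ and 0.435 to 1.02 CPM in chp2Δ. These 4 were called higher in clr3Δ against both partner mutants. Some of them were also called in ago1Δ or clr4Δ. Each of these genotypes is a single h+ strain with the reporter and marker alleles of the clr3Δ strain. In pA RNA, ago1Δ had 3 libraries and clr4Δ had as many as clr3Δ. Against the same wild-type libraries, SPBC1289.14 was also called higher in ago1Δ (log2 fold change 3.30) and clr4Δ (1.84), and SPNCRNA.1122 in ago1Δ (2.11). SPBPB2B2.06c and SPAC186.08c were called in neither ago1Δ nor clr4Δ, though SPAC186.08c had a log2 fold change of 1.93 in clr4Δ (edgeR, adjusted p = 0.119). Whether other mutants of the series share the high level of these genes is not reported here. In all, 5 of the 28 higher members were called against mit1Δ and 10 against chp2Δ.

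Several lower members were also lower in clr3Δ than in either partner mutant. At abp2 the level was 39.9 and 40.5 CPM in clr3Δ, 178 and 162 CPM in mit1Δ and 139 to 238 CPM in chp2Δ, and at cnp3 it was 37.3 and 39.7 CPM in clr3Δ, 192 and 189 CPM in mit1Δ and 129 to 218 CPM in chp2Δ. At SPAPB24D3.07c it was 15.95 and 19.8 CPM in clr3Δ, 115 and 107 CPM in mit1Δ and 98.0 to 223 CPM in chp2Δ, and at pfl3 45.0 and 45.2 CPM in clr3Δ, 282 and 249 CPM in mit1Δ and 175 to 266 CPM in chp2Δ. Of the 38 lower members, 16 were called lower in clr3Δ against mit1Δ and 28 against chp2Δ. All 38 log2 fold changes were negative and all 28 of the higher members positive in both comparisons, as shared clr3Δ libraries favour.

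Few genes with a known role in silencing and cell identity were called in pA RNA. Of 11 genes for heterochromatin writers and readers, none was called, and their log2 fold changes lay between −0.40 and 0.60. Among them clr4, the H3K9 methyltransferase gene, had 27.7 and 36.9 CPM in clr3Δ, against 47.7, 50.0, 17.7 and 19.5 CPM in wild type. In Pol II RIP clr4 was called lower, the only one of the 11, with 138, 143 and 162 CPM in clr3Δ, against 214 and 221 CPM in wild type (log2 fold change −0.56 ± 0.14, edgeR, adjusted p = 0.0463). The gene swi6, for the other HP1 protein, had 254 and 243 CPM in clr3Δ and 217 to 269 CPM in wild type. None of 10 RNAi genes, 5 genes of other histone deacetylases and 10 core histone genes was called. The same held for 7 genes specific to M cells and 4 genes specific to P cells. The clr3Δ and wild-type libraries were of h+ strains, except wild-type replicate 2, which was h90. Of 8 meiotic mRNAs that Mmi1 normally removes, none was called and the median log2 fold change was 0.29, and of 13 sporulation genes spn6 alone was called. Among 4 tested genes of the Tf2 retrotransposons none was called, and of 150 cytoplasmic ribosomal protein genes 1 was, rpl1602.

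Stress genes were the list with the largest median shift after the study's subtelomeric features. Of 16 genes of the core environmental stress response, 2 were lower (tms1 and rds1), none was higher, and the median log2 fold change was −0.76. In Pol II RIP none of the 16 was called and the median was 0.01. The summed level of the 16 was 1754 and 1467 CPM in clr3Δ, against 1969 to 4372 CPM in wild type, and strain 65 was the highest wild-type library. Of the 2 calls, 1 was left without wild-type replicate 2 or without wild-type replicate 3, and none without either clr3Δ library. The small heat shock gene hsp9 had 98.7 and 68.9 CPM in clr3Δ, against 168, 488, 202 and 80.4 CPM in wild type, and gpd1, for the glycerol phosphate dehydrogenase of osmotic stress, had 378 and 376 CPM in clr3Δ, against 519, 1081, 621 and 489 CPM in wild type. Neither was called. Of 12 heat shock genes none was called (median −0.40). Of 14 genes for flocculins and their regulators pfl3 alone was called. The acid phosphatase gene pho1 had 162 and 144 CPM in clr3Δ, against 749, 327, 412 and 382 CPM in wild type (−1.61, edgeR, adjusted p = 0.14).

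The strain markers showed what else differed between the libraries. The tagged ago1 of strain 65 had 259 CPM in wild-type replicate 2, against 70.1 to 85.3 CPM in the other wild-type libraries, with 83.4 and 87.9 CPM in clr3Δ. The gene ura4 had 342 and 390 CPM in clr3Δ and 194 to 460 CPM in wild type, and leu1 had 292 and 447 CPM in clr3Δ and 134 to 410 CPM in wild type. Of the 3 tested neighbours of clr3 on chromosome II, none was called: atb2 had 297 and 261 CPM in clr3Δ and 254 to 330 CPM in wild type, rpl4301 had 849 and 1106 CPM in clr3Δ and 926 to 1117 CPM in wild type, and whi5 had 3.02 and 2.62 CPM in clr3Δ and 3.25 to 6.45 CPM in wild type.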

How the data were processed

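The authors aligned reads with STAR 2.7.3a to the PomBase genome, removed ribosomal RNA reads and counted the rest per feature with a script that extends htseq-count, by strand for RNA. Reads with several locations were counted only within heterochromatic regions. The deposited files hold raw counts per feature, 1 file per library, without normalization. Names and positions came from RefSeq ASM294v3, which matched 6863 of 7021 features. Whether the counts used that build is not stated, and only 5.81% of protein-coding genes have the same length there.

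Counts were fitted with edgeR 4.0.16 (R 4.3.3, quasi-likelihood, TMM), 1 fit per assay with all genotypes (32 libraries and 13 genotypes in pA RNA), after a filter of at least 10 counts in at least 2 libraries. The interaction fit used 61 libraries. A feature was called at an adjusted p under 0.05. The fit was tested on simulated data. DESeq2 1.42.0, other scalings and filters, single libraries left out and a replicate block were the alternatives. Of the called features with clr3Δ libraries on one side of all wild-type ones and a mean of at least 5 TPM in the higher group, the text names the 15 protein-coding genes and 6 ncRNAs at either end, besides list members. The members and the 27 gene lists (7 names unmatched) were chosen with earlier results of these data known. No replicate pair was identical. H3K9me2 has 1 library per genotype and at least 10 input counts were required. Wild-type input held only 815040 counts, clr3Δ input 4568566. Intervals cover counting error only. Total RNA was not used here.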

Additional observations from a re-analysis of the deposited data

Results flagged for a closer look

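In 5 of the 106 groups of 4 wild-type libraries that were checked, 1 library stood apart by Dixon's criterion, and chance alone flags about 1 group in 20. Of the 66 called members, 3 were among them. The gene pdc102 had 0.0773 CPM in wild-type replicate 4, below 0.129 to 0.137 CPM in the other wild-type libraries. SPAC750.01 had 0.323 CPM in wild-type replicate 2, which is strain 65, below 2.74 to 3.09 CPM. The gene cnp3 had 277 CPM in wild-type replicate 1, above 104 to 132 CPM. The other flagged values were ago1, at 259 CPM in wild-type replicate 2, whose ago1 is tagged, above 70.1 to 85.3 CPM, and ftm2, at 26.3 CPM in wild-type replicate 4, above 3.09 to 6.65 CPM.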

How the results depend on the processing

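Of the 42 named features, 9 were called under all 15 alternatives (ftm4, SPAC750.06c, SPBC1289.14, SPBPB2B2.06c, SPAC186.08c, SPAC212.06c, SPNCRNA.1299, SPAPB24D3.07c and abp2), and no change reversed. In pA RNA, DESeq2 called 42 members higher and 112 lower, and a fit of the clr3Δ and wild-type libraries alone called 10 and 2. The replicate block, whose numbers did not pair the samples (correlations of 0.07 and 0.18 from 2 pairs), called 23 and 23 in pA RNA, 16 and 49 in Pol II RIP, and 2 and 18 in Pol II ChIP. DESeq2 called 29 and 55 in Pol II RIP, and 11 and 32 in Pol II ChIP. Without 1 library each, the counts of higher and lower members ranged from 12 to 30 and from 2 to 49 in pA RNA, from 5 to 7 and from 11 to 35 in Pol II RIP, from 1 to 26 and from 1 to 23 in Pol II ChIP, from 6 to 12 and from 3 to 25 against mit1Δ, and from 5 to 29 and from 6 to 88 against chp2Δ. Fits without a pair of wild-type libraries were chosen after seeing the data. Without replicates 1 and 2, 134 members were higher and 109 lower, with 23 of the 28 and 30 of the 38 among them, and against chp2Δ 92 and 121. Without replicates 3 and 4 the counts were 59 and 63, with 19 and 26 shared, and against chp2Δ 59 and 121. The cause of these shifts was not tested. Wild-type RNAs with few or no reads limit the precision of the largest changes.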
